A study of Mus musculus with 3 samples.

Results

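The immediate-early and heat-shock genes described here are 37 genes of the 32285 in the deposited table, chosen by symbol: 28 immediate-early genes (8 of the AP-1 and ATF families, 8 of the EGR, KLF and NR4A families, and 12 feedback or other early genes) and 9 heat-shock genes. Their transcript counts were summed per mouse in each leukocyte type and macrophage subset, to ask how far they followed the cell type, the genotype or the digest that all cells of a mouse went through together.

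The data came from CITE-seq, in which transcripts and surface proteins are counted in the same single cells, of CD45+ leukocytes from the mouse aorta. The mice were 5 Jak2WT littermate controls and 5 Jak2V617F Myel mice on a C57BL/6 background, and the sources used here give no age for them. In Jak2V617F Myel mice the activating Jak2V617F allele (Jak2V617F WT/Flex) was switched on by Cre driven from the lysozyme M promoter, which is active mainly in myeloid cells, so T and B cells of these mice were not the intended carriers. Aneurysm was seen in 2 of the mutant mice (mice 7 and 9), and the other 3 (mice 6, 8 and 10) had aortic dilation. Each aorta was digested with collagenases, hyaluronidase and DNase for 45 min at 37 °C and tagged with its own hashtag antibody, and the 10 suspensions were then pooled, sorted once and run as 1 library. Cells labelled by an intravenous anti-CD45.2 antibody, meaning circulating leukocytes, were sorted out, and the gate was set so that each genotype gave a similar number of cells. The 3′ tags used here do not read the mutated base, so the allele itself was not checked in any cell.

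Immediate-early genes are transcribed within minutes of a stimulus, without new protein synthesis, through factors that already sit in the cell, such as serum response factor with its ETS partners and CREB. Their products are transcription factors (Fos, Jun, Egr1, Klf and Nr4a proteins) and brakes on the same signal, such as the Dusp phosphatases that switch off MAP kinases and Zfp36, which destabilises inflammatory mRNAs. Heat-shock genes are driven by HSF1 when unfolded proteins accumulate and encode chaperones of the HSP70, HSP90 and HSP40 families. Both groups are known to rise while tissue is digested with warm enzymes, and both also have steady functions in living macrophages.

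Of the 37 genes, 30 had a promoter in the RefSeq table (build GRCm38.p6), each 300 bases long from 250 bases before to 50 bases after the start. The upstream bases, up to where the annotated gene begins, are shown for 5 members that the results below turn on: Fos and Jun, the classical AP-1 partners, Dusp5, which ran against most other members, and the HSP70 genes Hspa1a and Hspa1b. Capitals mark a CArG box (the serum response factor motif) in Dusp5 and the HSF1-type inverted repeat GAANNTTC in Jun, Hspa1a and Hspa1b, searched on both strands. The window of Fos held neither of them, and bases further upstream were not searched, so absence from a window does not mean absence from the gene.
Fos (chr12:85473640-85473889, plus strand): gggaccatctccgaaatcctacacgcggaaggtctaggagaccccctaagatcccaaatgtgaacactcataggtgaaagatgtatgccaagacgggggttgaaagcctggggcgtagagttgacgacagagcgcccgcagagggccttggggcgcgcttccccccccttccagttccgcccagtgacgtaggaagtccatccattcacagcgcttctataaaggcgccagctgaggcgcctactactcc
Jun (chr4:95052223-95052472, minus strand): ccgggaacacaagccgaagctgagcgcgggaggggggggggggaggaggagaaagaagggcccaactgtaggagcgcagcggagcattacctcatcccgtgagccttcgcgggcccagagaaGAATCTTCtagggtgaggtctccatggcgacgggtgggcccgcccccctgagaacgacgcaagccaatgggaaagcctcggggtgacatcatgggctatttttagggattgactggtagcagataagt
Dusp5 (chr19:53528895-53529108, plus strand): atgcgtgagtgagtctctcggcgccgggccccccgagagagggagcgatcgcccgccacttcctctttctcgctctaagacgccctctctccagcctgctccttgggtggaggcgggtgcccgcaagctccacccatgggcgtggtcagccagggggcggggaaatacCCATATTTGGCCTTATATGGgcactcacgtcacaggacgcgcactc
Hspa1a (chr17:34972157-34972406, minus strand): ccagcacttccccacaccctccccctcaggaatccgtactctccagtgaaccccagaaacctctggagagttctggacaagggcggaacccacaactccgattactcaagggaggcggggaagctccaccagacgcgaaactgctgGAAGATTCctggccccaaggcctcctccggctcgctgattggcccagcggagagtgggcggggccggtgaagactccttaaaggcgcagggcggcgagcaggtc
Hspa1b (chr17:34959239-34959488, minus strand): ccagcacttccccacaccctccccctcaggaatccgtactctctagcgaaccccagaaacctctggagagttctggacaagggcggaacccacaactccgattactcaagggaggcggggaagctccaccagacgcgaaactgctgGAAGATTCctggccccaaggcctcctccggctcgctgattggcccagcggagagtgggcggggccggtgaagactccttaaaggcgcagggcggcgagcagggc
Distances are counted to the RefSeq start. Dusp5 is shown over 214 upstream bases that stop short of this start, because its annotated gene begins earlier. The Dusp5 window held 2 CArG boxes directly beside each other, ending 73 and 63 bases before the start. The Jun repeat ended 121 bases before the start, and those of Hspa1a and Hspa1b ended 97 bases before it. The Hspa1a and Hspa1b windows were identical at 296 of 300 bases, and their transcripts are near-identical copies as well, so how reads were divided between them is uncertain. Among the 30 members with a window, 3 held a CArG box (Egr2, Zfp36 and Dusp5), against 1.81% of all 27025 promoters in the table. GAANNTTC stood in 7 members, of which 5 were heat-shock genes out of 6 with a window, against 9.04% of all promoters. The CREB motif TGACGTCA stood in 4 (Maff, Dusp1, Btg2 and Ppp1r15a) against 2.03%, and the AP-1 motif TGANTCA in none of the 30 against 8.97%. A match describes the letters only and is not evidence of binding.

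Of 8471 barcodes, 4871 were kept, which carried 1 hashtag and at most 10% mitochondrial counts, with 112 to 811 cells and 1038443 to 9643994 transcript counts (UMIs) per mouse. Clusters were made without the 37 genes and without 88 other stress genes, and a name such as macrophages stands for macrophage-like cells, called by their markers (C1qa, C1qb, C1qc, Csf1r, Fcgr1 and Mrc1). Sums of at least 10 cells gave 10 mice for macrophages (1825 cells) and T cells (413 cells), and 9 for B cells (559 cells), cDC2 dendritic cells (367 cells) and group 2 innate lymphoid cells (ILC2, 233 cells). Mouse 4 was absent from the B cell sums because it had 8 B cells. Resident macrophages stand for a pool of 3 clusters whose best score was that of the resident markers (Lyve1, F13a1, Folr2, Cbr2 and Gas6), led by Bmp2 and Ccn1 (542 cells), by Cd209d and Aqp1 (354 cells) and by the interferon-response genes Ifit3 and Rsad2 (325 cells). None of these resident markers was among the 10 leading genes of any of the 3, and those of the third were interferon-response genes, so the pool was also tested without that cluster, an alternative chosen after seeing the data. The Bmp2-led cluster scored only 0.22 for the resident markers, near the cut-off of 0.15, and the Cd209d-led cluster scored 0.81. The third cluster scored 0.47 for the resident markers, 0.68 for those of Txnip-high residents and 0.40 for those of interferon-response macrophages. Without a mitochondrial limit, clustering gave instead a resident cluster led by Ddit4 and Txnip (262 cells) and an interferon-response cluster of 52 cells. The interferon-led cluster may therefore hold many Txnip-high residents, which leaving it out also removes. Levels are in CPM (counts scaled to a common total per sum), so they are shares of the RNA captured from a cell type. As a gauge of free RNA, the macrophage gene C1qa stood at a median of 5543 CPM in macrophages, 81.7 CPM in T cells, 135 CPM in B cells and 353 CPM in cDC2. The red cell gene Hbb-bs, which leukocytes should lack, ranged from 45.4 to 189 CPM in macrophages of the first 8 mice. It stood at 1707 CPM in macrophages of mouse 9 and 1546 CPM in those of mouse 10, against 60.4 and 63.7 CPM in their T cells. In T cells it stood at 10677 CPM in mouse 3 and 1559 CPM in mouse 7, against 51.5 and 49.1 CPM in their macrophages. Red cell RNA was thus uneven between cell types of the same mouse, and its source was not tested.

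Aortic macrophages carried the highest summed level among the cell types with 5 or more mice. The 37 genes made up a median of 5.23% of macrophage UMIs (3.72 to 6.29% over 10 mice), against 1.31% in T cells and 1.32% in B cells. The immediate-early sum had a median of 36863 CPM in macrophages, with 27591 in the lowest mouse and 46535 in the highest. It was 20172 CPM in cDC2, 16876 in ILC2, 8812 in B cells and 6394 in T cells. The highest cDC2 sum, 24569 CPM, stayed under the lowest macrophage sum, whereas each later pair of neighbours in this order overlapped between mice. Mast cells were higher still, with 46130 to 61055 CPM, but this rests on 41 cells of 4 mice. The heat-shock sum ran from 14469 CPM in macrophages through 11601 in cDC2 and 6489 in T cells to 4469 in ILC2 and 4378 in B cells, so ILC2 followed cDC2 for the early genes and near the bottom for the chaperones.

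**Figure D1:**
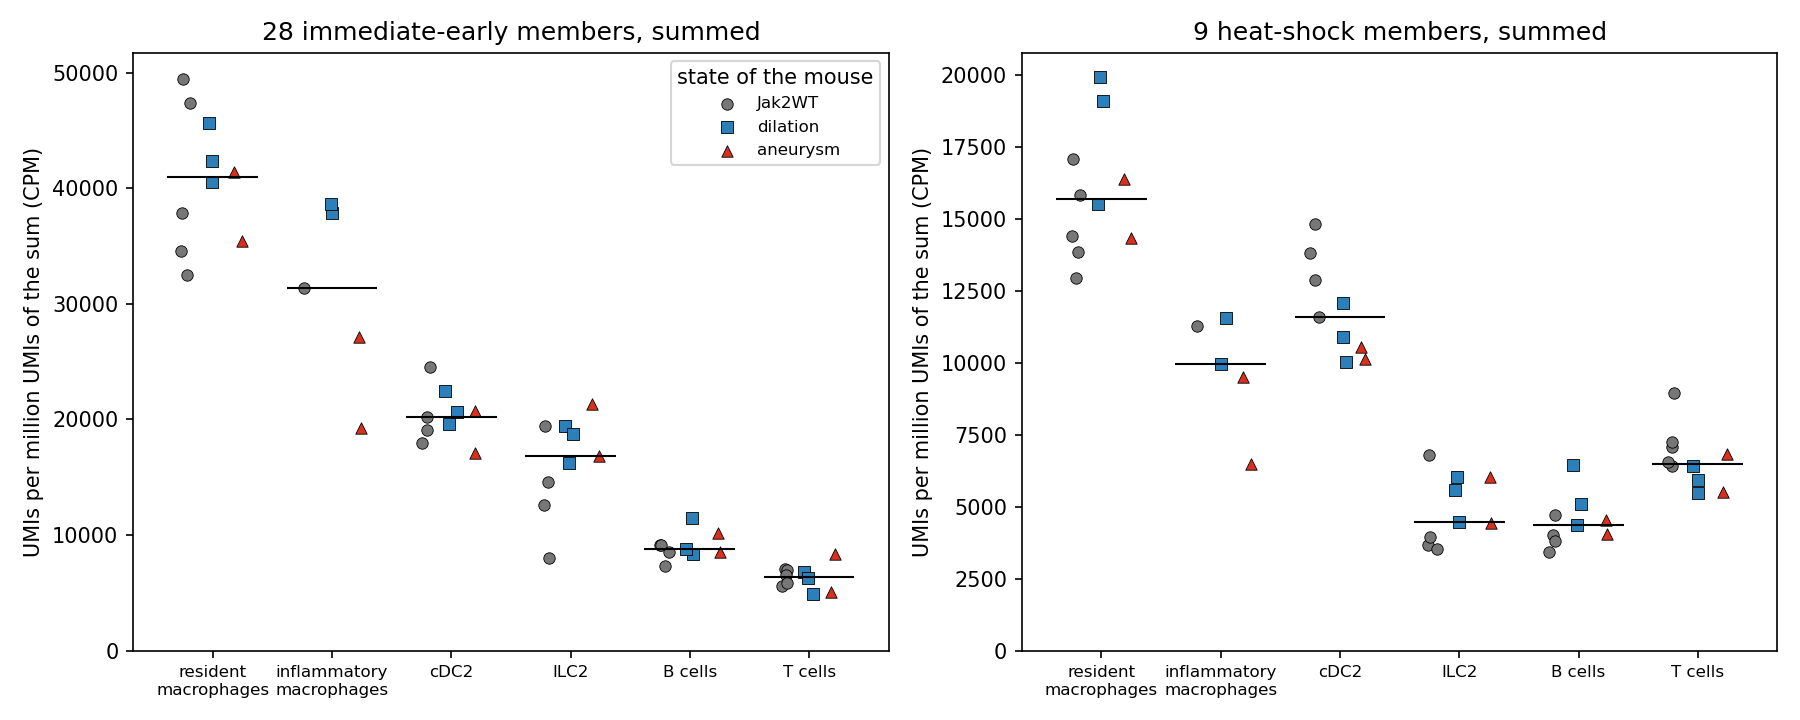
Summed level in CPM (UMIs scaled to the total of the sum) of the 28 immediate-early members (left) and the 9 heat-shock members (right) in 6 leukocyte populations, with 1 point per mouse (grey circles Jak2WT, blue squares dilation, red triangles aneurysm) and a line at the median. For the early genes, resident macrophages (the pool of 3 clusters, median 40976 CPM) lie above cDC2 (20172), ILC2 (16876), B cells (8812) and T cells (6394), while for the heat-shock genes ILC2 (4469) lie as low as B cells (4378).

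In the edgeR quasi-likelihood test of macrophage against T and B cell sums, with the mouse as a block, 29 of the 37 members were higher in macrophages and 4 were lower at a Benjamini-Hochberg adjusted p under 0.05. Both cell classes differ widely: 37.0% of all 7648 genes tested were called higher in macrophages and 34.5% lower. The median log2 fold change was 1.52 for the members and -0.009 for all genes. The 4 that did not pass were Fosl2, Nr4a2, Hsp90ab1 and Dnaja1.

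Among the AP-1 and ATF genes, whose products pair into dimers on DNA, 7 of 8 were higher in macrophages. Fos ranged from 2780.5 to 4804 CPM in macrophages (median 3656), from 76.6 to 366 in T cells (median 218) and from 269 to 1365 in B cells (median 532). Its log2 fold change was 3.36 (SE 0.20, adjusted p = 9.3e-16). Jun, its usual partner, had a median of 4658 CPM in macrophages (1891 to 5797) against 124 in T cells (68.1 to 369) and 174 in B cells (131 to 299), a log2 fold change of 4.46 (SE 0.19, adjusted p = 3.8e-19). For both genes every macrophage sum lay above every lymphocyte sum. Atf3, a repressor of inflammatory transcription, had a median of 2738 CPM in macrophages, 44.9 in T cells and 370 in B cells (log2 fold change 4.16, SE 0.22, adjusted p = 6.6e-17). Fosb, Fosl2 and Jund had their highest median in ILC2, where Fosb ranged from 789 to 3616 CPM (median 2578) against 783 to 1785 in macrophages (median 1096), with overlap between the cell types. Maff, a small partner without an activation domain, was highest in cDC2, at a median of 78.1 CPM.

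Of the EGR, KLF and NR4A factors, 6 of 8 were higher in macrophages and Klf2 was lower. Egr1, a zinc-finger factor that follows ERK signalling, ranged from 1749 to 4228 CPM in macrophages (median 2725), from 41.6 to 149 in T cells (median 85.6) and from 74.6 to 481 in B cells (median 276). The groups did not overlap, with a log2 fold change of 4.00 (SE 0.16, adjusted p = 3.5e-20). Klf2, which keeps lymphocytes in a quiescent, circulating state, was highest in B cells (407 to 1151 CPM, median 696), close to T cells (374 to 1084 CPM, median 670). Its log2 fold change was -0.43 (SE 0.14, adjusted p = 0.0084), a call that was lost in 11 of 22 alternative settings. Nr4a1, an orphan receptor induced by antigen-receptor signalling in lymphocytes, had medians of 560 CPM in macrophages, 231 in T cells, 757 in B cells and 1426 in ILC2. Its macrophage excess over T and B cells together was small (log2 fold change 0.50, SE 0.15, adjusted p = 0.0039), while B cells on their own had the higher median.

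The 12 feedback and other early genes split, with 10 higher and 2 lower. Ccn1, a secreted matrix protein, reached 28.3 to 299 CPM in macrophages and at most 11.8 in any T cell and 5.77 in any B cell sum, and it had the largest member difference in this comparison (log2 fold change 5.54, SE 0.22, adjusted p = 3.2e-20). Ier3, a survival-linked early gene, followed with 5.33 (SE 0.16). Dusp1, the phosphatase that inactivates p38 and JNK, had a median of 3202 CPM in macrophages, 258 in T cells and 146 in B cells (log2 fold change 3.94, SE 0.13, adjusted p = 3.0e-22). The nuclear phosphatases Dusp2 and Dusp5, which act on ERK, went the other way. Dusp5 had a median of 18.3 CPM in macrophages against 235 in T cells (116 to 446), 100.1 in B cells (65.6 to 171) and 431 in ILC2 (248 to 558), with a log2 fold change of -2.24 (SE 0.31, adjusted p = 1.4e-07). Dusp2 had medians of 96.9, 193 and 186 CPM in macrophages, T cells and B cells (log2 fold change -1.12, SE 0.31, adjusted p = 0.0019). In 8 of 10 mice macrophage Dusp5 was at most 26.7 CPM, and the other 2 mice are those with aneurysm, described below.

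Among the 9 heat-shock genes, 6 were higher in macrophages and 1 was lower. The stress-inducible HSP70 gene Hspa1a ranged from 1447 to 4796 CPM in macrophages (median 3316), from 42.5 to 390 in T cells (median 97.2) and from 34.9 to 193 in B cells (median 108), with no overlap and a log2 fold change of 4.82 (SE 0.21, adjusted p = 2.2e-19). The difference was much smaller for Hspa8, the constitutive HSP70, with medians of 3268, 1846 and 1101 CPM (log2 fold change 1.12, SE 0.09, adjusted p = 6.0e-13). The HSP40 co-chaperone Dnajb1 had medians of 281, 160 and 65.6 CPM (log2 fold change 1.41, SE 0.15, adjusted p = 1.2e-09). Hspe1, a mitochondrial co-chaperonin, was lower in macrophages (log2 fold change -0.45, SE 0.10, adjusted p = 1.8e-04), and Hsp90ab1 and Dnaja1 did not pass. Hspa1a and Hspa1b were also far lower in ILC2, at medians of 77.3 and 77.0 CPM, although ILC2 had the highest medians for Fosb and Jund.

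Across these 5 cell types, 21 members had their highest median in macrophages, 8 in ILC2, 5 in cDC2, 2 in T cells and 1 in B cells. The 8 with an ILC2 maximum were Fosb, Fosl2, Jund, Nr4a1, Nr4a2, Dusp5, Ppp1r15a and Dnaja1. These orders of medians are descriptive, and no test was made between ILC2 and macrophages. Cells differed in depth, with a median of 10418 UMIs per macrophage, 7727 per T cell and 5414 per B cell. The part of depth in the levels was not tested. Each cell was also drawn down to 2000 UMIs, which left out 398 cells with fewer. The member share of macrophage UMIs and the calls stayed in the range given in the closing section. A random draw keeps the expected share of a gene within a cell, so it cannot decide this question.

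**Figure D2:**
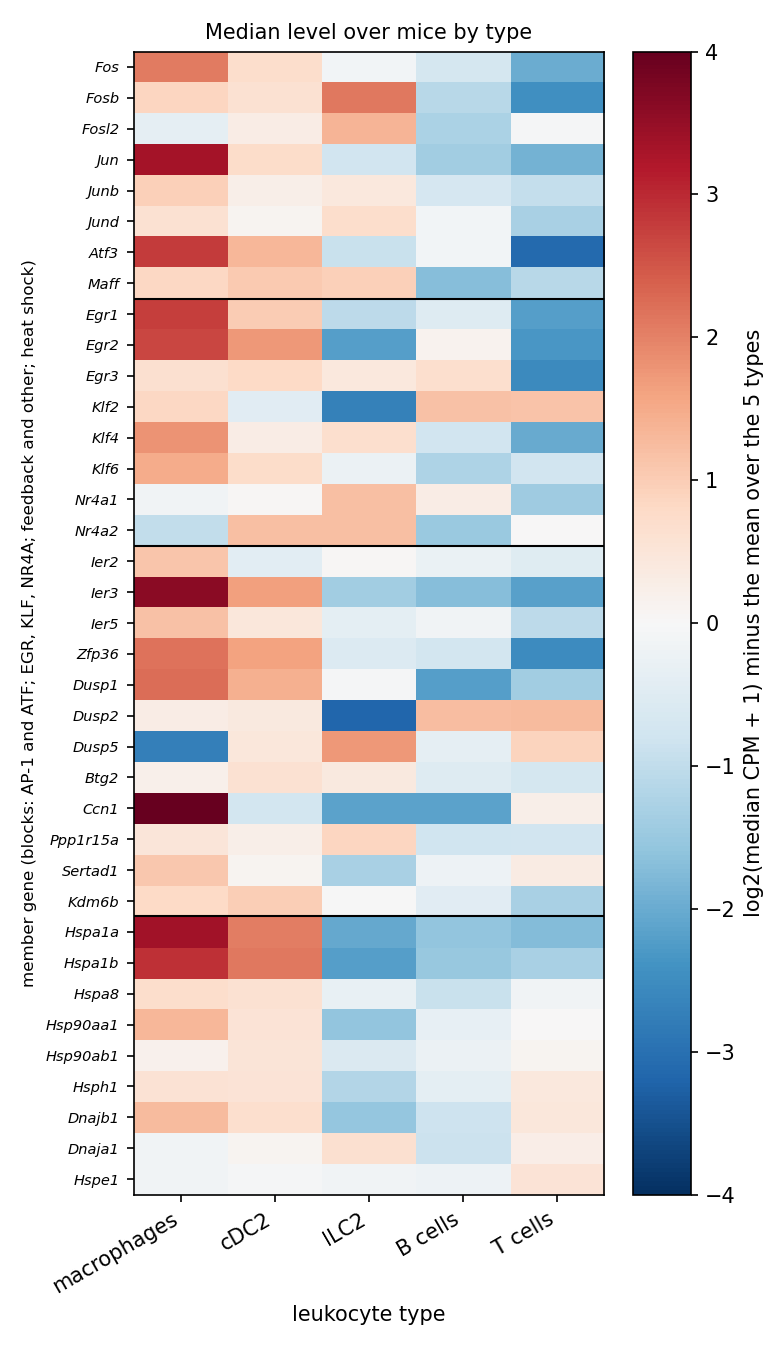
Heat map of the median level over mice of each of the 37 members (rows, blocked by role) in 5 leukocyte types (columns), coloured by log2(median CPM + 1) minus its mean over the types. Jun (4658 CPM in macrophages, 124 in T cells) and Hspa1a (3316 against 97.2) are darkest red in macrophages, while Dusp5 is blue there (18.3 CPM) and red in ILC2 (431 CPM).

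Other genes of the same pathways were read as lists. Of 33 other immediate-early and feedback genes tested, 23 were higher in macrophages and 8 lower, with Cebpd (log2 fold change 4.63), Nfkbiz (4.24) and Dusp8 (4.15) at the top and Dusp10 (-3.64), Dusp4 (-3.31) and Btg1 (-2.16) at the bottom. Other cytosolic and mitochondrial chaperones and HSF1 targets did not share the macrophage excess, with 6 higher and 10 lower of 20, among them Hspb1 (3.38) and Bag3 (2.29) as the highest. Of 14 chaperones of the endoplasmic reticulum, 9 were higher and none lower, led by Sdf2l1 (2.00). Of the upstream factors 4 were higher and 3 lower of 10 tested, shares near those of all genes given above. Mapk3, the ERK1 kinase, was higher (2.27), whereas Hsf1 itself (-0.87) and the ETS partner Elk4 (-1.44) were lower in macrophages.

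Between genotypes the members did not separate in macrophages. Fos stood at 3550, 4658, 4804, 2821 and 3586 CPM in the 5 Jak2WT mice and at 3981, 2780.5, 3727, 2827 and 4803 CPM in Jak2V617F Myel mice 6 to 10. Both groups covered the same range, with a log2 fold change of -0.07 (SE 0.17, adjusted p = 0.92 by edgeR). Egr1 (-0.21, SE 0.20) and Dusp1 (0.04, SE 0.16) were as close. None of the 37 members was called by edgeR, where 0% of the 8197 genes tested were called. At an unadjusted p under 0.05 there were 6 members, where 11.9% of all genes were, and DESeq2 called 0 members and 0.573% of all genes. The largest member difference was Dusp5, with 15.8 ± 6.32 CPM (SD, n = 5) in Jak2WT and 78.6 ± 85.7 CPM (SD, n = 5) in mutant mice (log2 fold change 2.47, SE 0.81, adjusted p = 0.29), with mutant mice running from 5.76 to 195 CPM. In resident macrophages taken alone, again 0 of 37 members were called by edgeR, where 0.458% of all genes were called. There 8 members had an unadjusted p under 0.05, where 12.1% of all genes had. DESeq2 called 1 member, Ppp1r15a (log2 fold change 0.46, adjusted p = 0.0497), and 1.26% of all genes. Hsp90ab1 did not overlap, with 1596 to 1964 CPM in Jak2WT and 2019 to 2407 CPM in mutant residents. Its log2 fold change was 0.28 (SE 0.08), with an adjusted p of 0.15 by edgeR. The interferon-led cluster was 17.2 to 73.3% of the resident pool in Jak2WT and 13.6 to 22.4% in mutant mice, and without it edgeR again called 0 members.

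In T cells 33 members passed the filter on low counts and none was called by edgeR, where 0% of 3187 genes were called. Of these members 11 had an unadjusted p under 0.05, where 7.06% of all genes had, and DESeq2 called 0 members and 0% of all genes. All 9 heat-shock genes had a negative log2 fold change, with a median of -0.55 against -0.003 for all genes tested, and 8 of the 11 were heat-shock genes. Hsp90aa1, an inducible HSP90, stood at 1070, 844, 1222, 817 and 1159 CPM in Jak2WT mice and at 693, 807, 765, 597 and 720 CPM in mutant mice 6 to 10. Every mutant mouse lay below every Jak2WT mouse (log2 fold change -0.63, SE 0.15), yet the adjusted p was 0.31. Dnajb1 had 204 ± 51.3 CPM (SD, n = 5) against 138 ± 24.5 CPM (SD, n = 5), a log2 fold change of -0.75 (SE 0.19, adjusted p = 0.31).

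B cells showed the opposite sign, with 8 of 9 heat-shock genes positive and a median log2 fold change of 0.40, of which none passed. Of all 3405 genes tested there, 1731 were positive, with a median of 0.004. Klf4, a zinc-finger factor that restrains B cell proliferation, was the 1 member called of 34 tested, where 0.0294% of all genes were called. It stood at 91.0, 64.8, 67.4 and 79.9 CPM in Jak2WT mice 1, 2, 3 and 5, and at 146, 152, 219, 213 and 155 CPM in mutant mice 6 to 10. The groups did not overlap (log2 fold change 1.18, SE 0.19, adjusted p = 0.044 by edgeR), but the call sits at the threshold and was lost in 15 of 22 alternative settings, with adjusted p between 2.1e-04 and 0.92.

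In cDC2, 0 of 36 tested members were called by edgeR, against 0.0246% of all genes. There were 9 members at an unadjusted p under 0.05, against 7.39% of all genes, and DESeq2 called 2 members and 0.295% of all genes. Heat-shock genes were again mostly negative, 8 of 9 with a median of -0.53, where 2102 of all 4062 genes were negative. Dnajb1 stood at 265, 262, 331 and 286 CPM in Jak2WT mice 1, 2, 4 and 5 and at 156, 131, 149, 190 and 111 CPM in mutant mice 6 to 10. The groups did not overlap (log2 fold change -0.99, SE 0.18), with an adjusted p of 0.15 by edgeR and 0.0013 by DESeq2. The macrophage gene C1qa also differed in these cDC2 sums, with 68.5 to 353 CPM in Jak2WT and 339 to 1177 CPM in mutant mice, and its part in the difference was not tested. The genotype effect in macrophages was also tested against that in T and B cells as an interaction. No member was called by edgeR, against 0.0131% of all genes, with 3 members at an unadjusted p under 0.05 (6.76% of all genes) and 0 by DESeq2. In macrophages 6 of 9 heat-shock genes were positive for genotype (median 0.062), where 4020 of all 8197 genes were. The 3 negative ones were Hspa1a (-0.08), Hspa1b (-0.10) and Dnajb1 (-0.32). In resident macrophages 7 of 9 were positive (median 0.245), where 3740 of 7866 genes were, and none was called in either. Heat-shock signs were thus mostly negative in T cells and cDC2 and mostly positive in B cells and resident macrophages, with no clear sign in all macrophages. The interferon-led cluster had the lowest heat-shock median of the 3 resident clusters (11845 CPM, against 18236 and 16007 CPM). Its share of the resident pool differed between genotypes, as given above. The part of this make-up in the resident sign was not tested. A common sign of heat-shock genes in T cells and cDC2 cannot be told apart from a difference between the digests of these mice, since all cells of a mouse came from the same one.

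**Figure D3:**
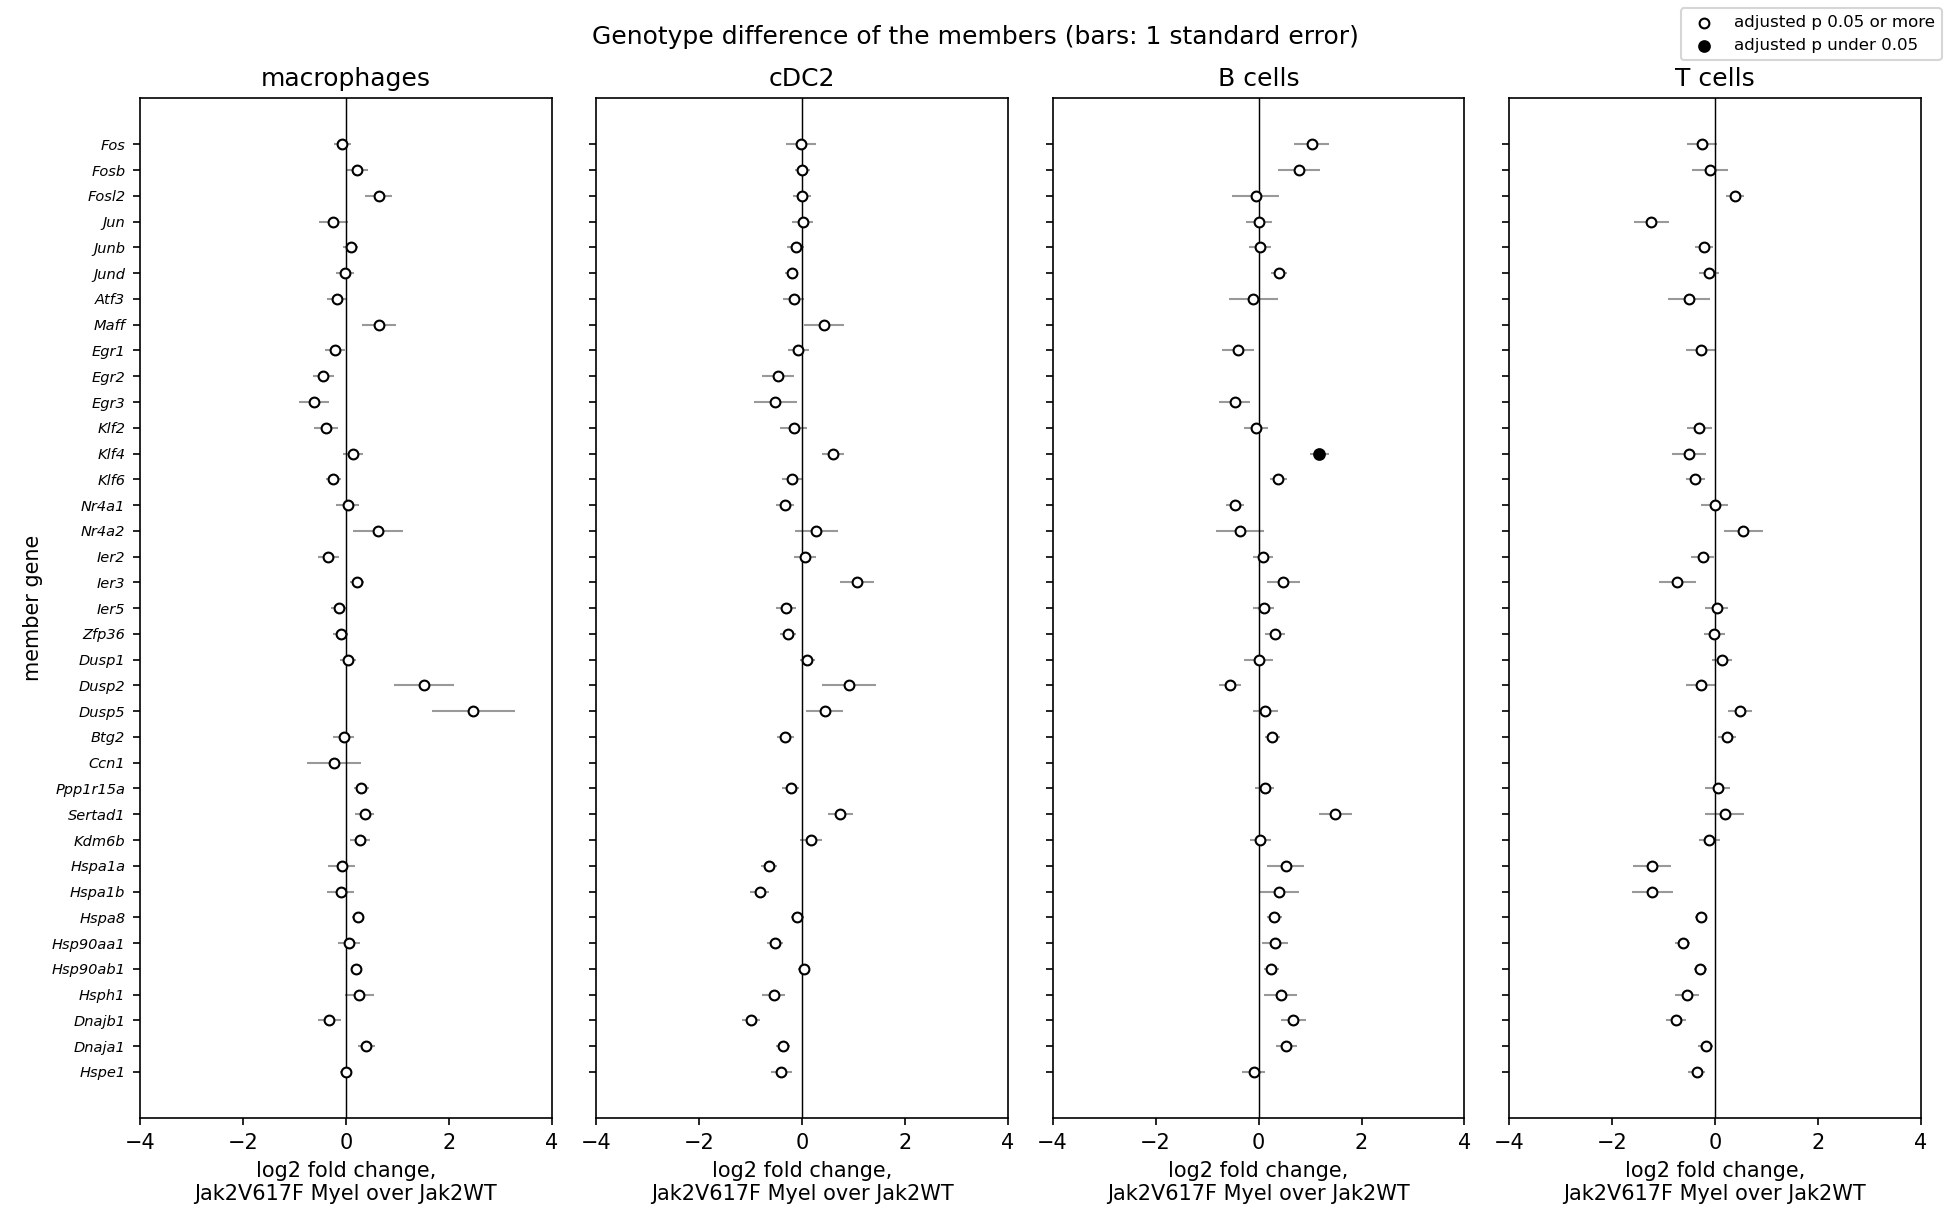
Log2 fold change, Jak2V617F Myel over Jak2WT, of each member tested in macrophages, cDC2, B cells and T cells, with bars of 1 standard error and filled points for an adjusted p under 0.05 (edgeR). The only filled point is Klf4 in B cells (1.18), and the heat-shock genes at the bottom lie left of 0 in T cells (9 of 9) and cDC2 (8 of 9) and right of 0 in B cells (8 of 9).

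Macrophage levels differed between mutant mice with aneurysm and those with dilation. In a fit that shared its spread with the Jak2WT mice, 3 members were higher with aneurysm and 8 were lower, where 6.09% of 9051 genes were called higher and 4.49% lower. The immediate-early sum was 28319 ± 1030 CPM (SD, n = 2) with aneurysm, 41205 ± 3063 CPM (SD, n = 3) with dilation and 38085 ± 7040 CPM (SD, n = 5) in Jak2WT. Both aneurysm mice also differed in the make-up of their macrophages. The inflammatory subset (Ccr2, Spp1, Tnip3 and Il1b) was 69.2% and 51.1% of their resident and inflammatory macrophages, against 0 to 10.8% in the other 8 mice.

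Dusp5 stood at 25.9, 16.2, 11.4, 16.0 and 9.54 CPM in Jak2WT macrophages, at 26.7, 5.76 and 20.3 CPM with dilation and at 146 and 195 CPM with aneurysm. Both aneurysm mice lay above all others, and the log2 fold change from dilation was 3.30 (SE 0.32, adjusted p = 3.4e-05). Dusp2 stood at 90.1, 50.4 and 104 CPM with dilation and at 402 and 279 CPM with aneurysm (log2 fold change 2.11, SE 0.47, adjusted p = 0.011). Nr4a2 rose likewise, by 1.96 on the log2 scale (SE 0.34, adjusted p = 0.0019).

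Most called members were lower with aneurysm. Jun stood at 4338, 5636, 5797, 3317 and 4092 CPM in Jak2WT macrophages, at 5207, 5273 and 4979 CPM with dilation and at 1936 and 1891 CPM with aneurysm. The aneurysm mice lay below the 8 others, 2.57-fold lower than with dilation (log2 fold change -1.36, SE 0.19, adjusted p = 3.7e-04). Hspa1a stood at 3110, 3727, 3805, 3387 and 3006 CPM in Jak2WT, at 4796, 4478 and 3245 CPM with dilation and at 1861 and 1447 CPM with aneurysm (log2 fold change -1.26, SE 0.17, adjusted p = 3.3e-04), and Hspa1b behaved alike (-1.29, SE 0.16). Again both aneurysm mice were the lowest of all 10. Ccn1 (-2.01, SE 0.54), Hsp90aa1 (-0.90, SE 0.18), Klf2 (-0.84, SE 0.24), Atf3 (-0.78, SE 0.17) and Ier2 (-0.74, SE 0.20) completed the 8. Fos (-0.51, SE 0.19) and Egr1 (-0.70, SE 0.21) did not pass, at adjusted p of 0.11 and 0.052, nor did Dusp1 (-0.45, SE 0.18) and Hspa8 (-0.10, SE 0.13).

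The counts of called members depended on the population. In resident macrophages alone, 0 of 37 members were called by edgeR, where 0.0231% of 8640 genes were called, with 6 members at an unadjusted p under 0.05 (4.20% of all genes) and 0 by DESeq2 (0.0231% of all genes). There Jun was at 3808 CPM with aneurysm and 5545 CPM with dilation (log2 fold change -0.56, SE 0.18), Hspa1a at 3142 and 4501 CPM (-0.54, SE 0.15), and Dusp5 at 26.7 and 8.22 CPM (1.75, SE 0.45), with adjusted p of 1.00 for Jun and Hspa1a and 0.85 for Dusp5. The direction was that of all macrophages, at less than the size for each of these 3 genes. Without the interferon-led cluster edgeR again called 0 members, and the log2 fold changes were -0.56 for Jun, -0.50 for Hspa1a and 0.68 for Dusp5. Leaving out 1 aneurysm mouse reduced the 11 calls to 6 (without mouse 7) or 7 (without mouse 9), in a fit that assumes the lone mouse varies like the other groups.

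T cells of the same mice, from the same digests, showed no called member for aneurysm against dilation, where 0% of 4166 genes were called. Of 33 members tested, 2 had an unadjusted p under 0.05 (5.11% of all genes) and DESeq2 called 0. Dusp5 differed by 0.34 (SE 0.33) and Jun by -0.35 (SE 0.55) on the log2 scale. The difference between macrophages and T cells was tested as an interaction with the mouse as a block, a test chosen after seeing the data. It called 2 members, where 0.520% of all genes were called: Dusp5, whose change was 3.07 higher in macrophages (SE 0.44, adjusted p = 4.0e-04), and Hspa1b, whose change was lower by -2.59 (SE 0.50, adjusted p = 0.0073). The change of Hspa1b in macrophages was -1.29, so part of its difference was a change of opposite sign in T cells, where its median was 145 CPM. Its near-identical copy Hspa1a was not called. DESeq2 called Dusp5 alone among the members and 0.139% of all genes. For the other members called in macrophages, the change was not shown to differ from that in T cells.

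**Figure D4:**
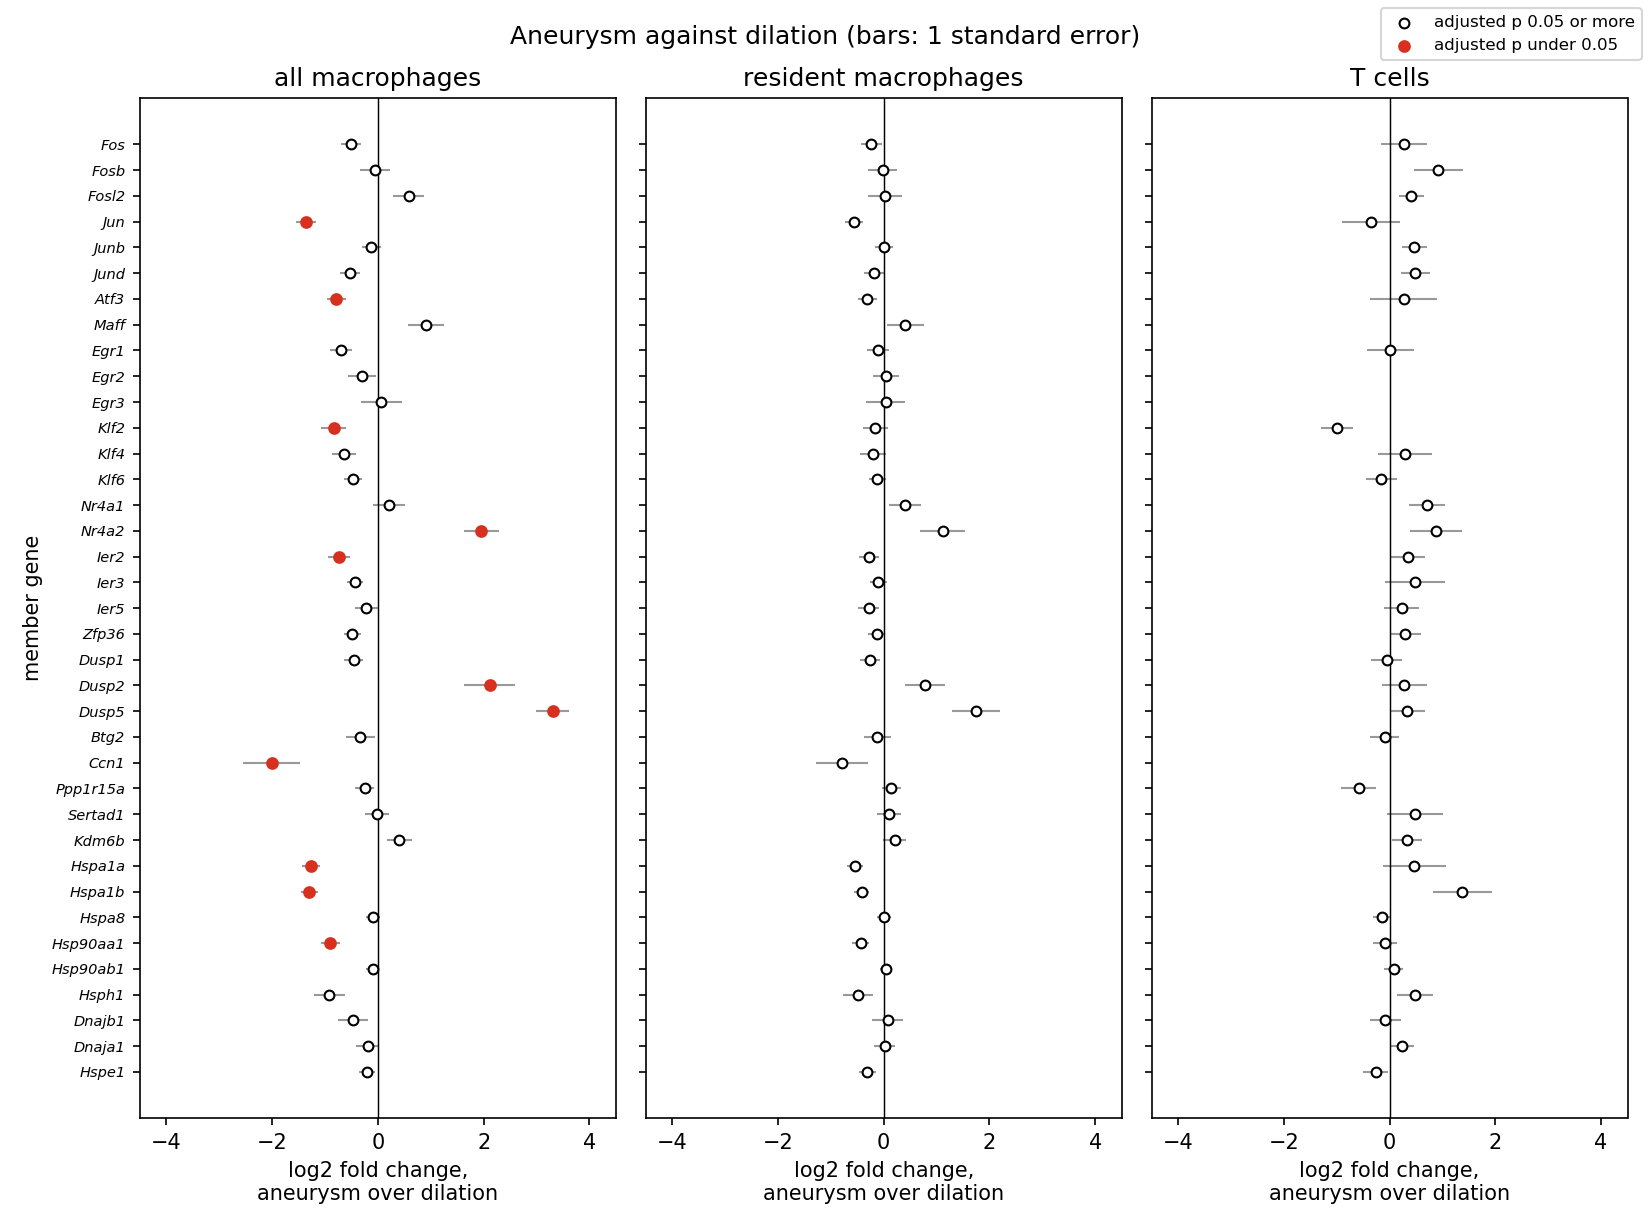
Log2 fold change, aneurysm over dilation, of each member tested in all macrophages, in resident macrophages and in T cells, with bars of 1 standard error and red points for an adjusted p under 0.05 (edgeR). Red points include Dusp5 (3.30) and Jun (-1.36) in all macrophages, and neither resident macrophages (Dusp5 1.75, Jun -0.56) nor T cells have a red point.

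The 2 macrophage subsets were compared within the 5 mice that had at least 10 cells of each (mice 2, 6, 7, 9 and 10). The inflammatory subset had 5 members higher and 16 lower than the resident subset, where 10.2% of 8981 genes were called higher and 9.85% lower. It pooled a cluster led by Spp1 and a cluster led by Hbegf, whose early-gene sums were unlike, as given below. The resident subset in turn held the Bmp2-led cluster, which had the weakest resident score and the highest early-gene sums. The falls of Ccn1, Hspa1b, Hspa1a, Jun and Ier2 kept their calls in all 24 alternative settings. These included a fit without the Bmp2-led cluster, chosen after seeing the data. Calls were lost for Atf3 in 5 settings, for Klf2 and Dnajb1 in 4 each and for Egr1 in 3. The part of that cluster in the size of the falls was not tested. The subsets were separated by clustering the same cells, with the 37 members left out of the genes used, so these differences describe the clusters. Dusp5 stood at 39.8, 159, 191, 314 and 110 CPM in the inflammatory subset and at 13.8, 14.2, 28.8, 24.7 and 5.51 CPM in the resident subset of the same mice, higher in 5 of 5 (log2 fold change 3.43, SE 0.24, adjusted p = 4.6e-10). Dusp2 (2.27, SE 0.20), Nr4a2 (1.01, SE 0.22), Fosl2 (0.74, SE 0.16) and Maff (0.74, SE 0.15) were the others that were higher. Jun stood at 2813, 2627, 1258, 607 and 3411 CPM against 6212, 5666, 3730, 3885 and 5244 CPM, lower in 5 of 5 (-1.33, SE 0.20, adjusted p = 1.9e-05). The largest falls were those of Ccn1 (-3.12, SE 0.47), Hspa1b (-1.67, SE 0.20), Hspa1a (-1.42, SE 0.17), Jun and Ier2 (-1.02, SE 0.21), while Fos (-0.21, SE 0.16) and Dusp1 (-0.22, SE 0.14) did not pass. Without both aneurysm mice, which gave 247 and 192 of the 482 inflammatory cells in these sums, 9 of the 21 members were still called. Without the interferon-led cluster all 21 kept their calls, with 3.77 for Dusp5 and -1.43 for Jun.

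Other genes of these pathways moved alongside in the subset comparison. Of 33 other immediate-early and feedback genes, 11 were higher and 8 lower in the inflammatory subset, with Bhlhe40 (2.36), a transcriptional repressor, and the kinase Pim1 (1.44) among the higher and Klf9 (-2.10) and Dusp6 (-1.55) among the lower. Hspb1, a small heat-shock protein, was lower by -3.09. No chaperone of the endoplasmic reticulum was called among 14 tested by edgeR, with 1 at an unadjusted p under 0.05 (30.9% of all genes) and 0 by DESeq2 (14.6% of all genes).

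Within macrophages the members also differed between finer clusters. Although the 37 members and the 88 other stress genes were left out, the largest cluster of 542 cells was led by Bmp2, Ccn1, Egr1, Zfp36, Jun and Atf3. Its immediate-early sum had a median of 56736 CPM over mice, against 34369 CPM in the cluster led by Cd209d and Aqp1 and 25757 CPM in the cluster led by the interferon-response genes Ifit3 and Rsad2. The cluster led by Spp1 and Mmp12 (333 cells, from 2 mice with at least 10 such cells) had 19538 CPM. The other inflammatory cluster, with Hbegf, Il1a and Ccr2 among its leading genes (165 cells, 3 mice), had 33628 CPM, close to the Cd209d-led cluster. Within single mice, the Bmp2-led cluster exceeded the Cd209d-led cluster in 8 of 8 mice (1.28-fold to 2.35-fold, median 1.64-fold) and the interferon cluster in 9 of 9 (1.86-fold to 3.01-fold). These are descriptions of clusters and carry no test. The heat-shock sum did not follow to the same degree, being higher than in the Cd209d-led cluster in 6 of 8 mice with a median ratio of 1.09. Against the interferon cluster the heat-shock sum was higher in 9 of 9 mice for the Bmp2-led cluster (median ratio 1.575). For the Cd209d-led cluster it was higher in 8 of 8 (median ratio 1.47). The Bmp2-led cluster was 11.1 to 57.6% of the resident pool over the 10 mice, and 48.2% and 45.1% in the 2 aneurysm mice. Counted without the interferon-led cluster it was 41.7 to 91.1%, and 57.0% and 52.2% in the aneurysm mice. Its cells had medians of 9124 UMIs and 2.19% mitochondrial counts, against 8888 UMIs and 2.13% in the interferon cluster and 15025 UMIs and 2.06% in the Spp1-led cluster.

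**Figure D5:**
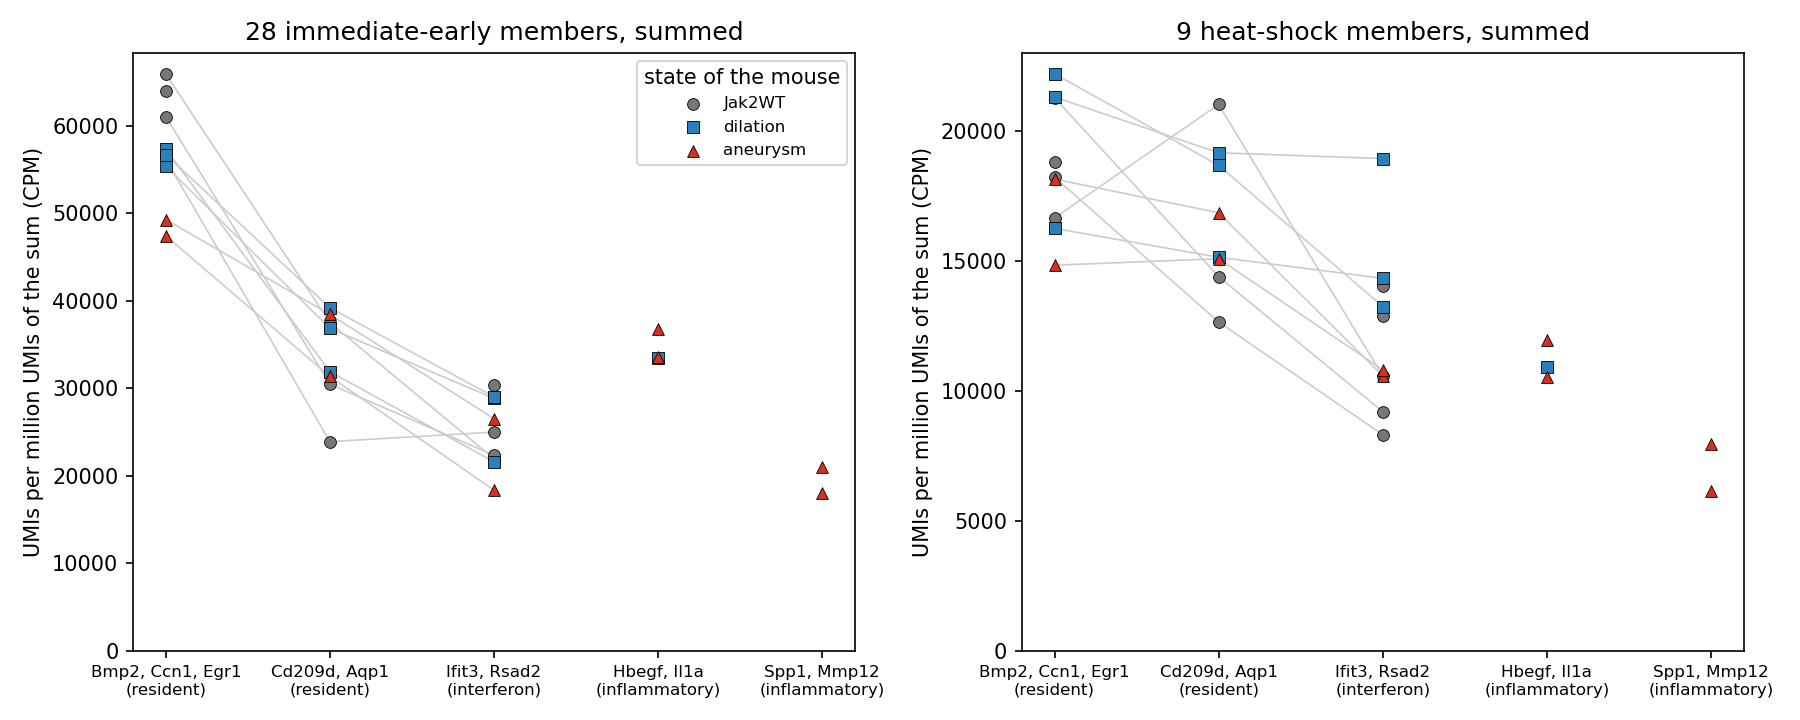
Summed level in CPM (UMIs scaled to the total of the sum) of the 28 immediate-early (left) and 9 heat-shock members (right) in 5 macrophage clusters named by their leading genes, with 1 point per mouse (grey circles Jak2WT, blue squares dilation, red triangles aneurysm) and grey lines joining a mouse across the 3 clusters of the resident pool (Bmp2-, Cd209d- and Ifit3-led). The Bmp2-led cluster has the highest immediate-early sums (median 56736 CPM) and the Spp1-led cluster the lowest median (19538 CPM).

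All leukocytes of a mouse shared its dissection, enzymes and time at 37 °C, so the members' levels were compared between cell types across mice. The immediate-early sum in macrophages did not track that in T cells (Pearson's r = -0.09, Spearman's rho = -0.06, n = 10 mice), B cells (r = -0.29, rho = -0.28, n = 9), cDC2 (r = -0.04, rho = -0.07, n = 9) or ILC2 (r = 0.08, rho = -0.03, n = 9). The heat-shock sum gave r = -0.11 for macrophages with T cells (rho = -0.35, n = 10) and 0.41 with B cells (rho = 0.32, n = 9). For resident macrophages it was 0.80 with ILC2 (rho = 0.83, n = 9), 0.60 with B cells (rho = 0.43, n = 9), -0.45 with T cells (rho = -0.49, n = 10) and -0.50 with cDC2 (rho = -0.50, n = 9). These values rest on the make-up of the pool: without the interferon-led cluster r was 0.48 with ILC2, 0.59 with B cells, 0.13 with T cells and -0.13 with cDC2. Between T cells and cDC2 the heat-shock r was 0.52 (rho = 0.42, n = 9). It was -0.51 for T cells with ILC2, -0.48 for cDC2 with ILC2 and -0.27 for B cells with cDC2. For T cells with B cells it was -0.05, and for B cells with ILC2 0.17. For the early genes these pairs ran from -0.77 (cDC2 with ILC2, n = 8) to 0.33 (B cells with ILC2, n = 9). Over single genes, the median correlation of immediate-early members between macrophages and T cells was 0.16, against 0.05 for 3962 genes, and between resident macrophages and T cells it was -0.02, against 0.04 for 3941 genes. With B cells, cDC2 and ILC2 the macrophage medians were 0.07, 0.21 and 0.17, against 0.02, 0.13 and 0.035 for all genes. Those of resident macrophages were -0.02, 0.20 and 0.27, against 0.03, 0.10 and 0.06. Heat-shock members of macrophages gave 0.06, 0.28, 0.19 and 0.39 with T cells, B cells, cDC2 and ILC2, against 0.05, 0.02, 0.13 and 0.035. In resident macrophages these were -0.10, 0.44, -0.17 and 0.385, against 0.04, 0.03, 0.10 and 0.06. These points share 1 library and the genotype split, and r is given as a description only.

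Within macrophages the 2 sums moved together across mice (r = 0.79, rho = 0.76, n = 10), less so within resident macrophages (r = 0.41, rho = 0.46, n = 10, and r = 0.19, rho = 0.26 without the interferon-led cluster). The immediate-early sum in macrophages was lower where the inflammatory share was higher (r = -0.64, rho = -0.32, n = 10) and where the median UMI count per macrophage was higher (r = -0.62, rho = -0.62), and showed no relation to the mitochondrial share (r = 0.04, rho = -0.04). The inflammatory share was 69.2% and 51.1% in the aneurysm mice and 0 to 10.8% in the others. Its r thus mainly sets the aneurysm mice against the rest and is not a graded trend. The aneurysm mice also had the highest median UMI counts per macrophage, 11452.5 and 13029, against 7807.5 to 10269 in the others. The r with the UMI count carries the same limit. The part of these quantities in the levels was not tested.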

How the data were processed

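The authors counted UMIs per barcode with Cell Ranger on mouse build mm10 and, per the labels, used Seurat 3.0.0. They deposited 1 count table of transcripts, antibodies and hashtags, with no cell annotation. Here, hashtags were called with HTODemux in Seurat 5.3.0 (positive quantile 0.99), which was also the only removal of doublets, and cells over 10% mitochondrial counts were left out. Cells were clustered on 2000 variable genes and 20 components, at resolutions 0.3 (types) and 0.8 (macrophages), and named by marker lists. Thresholds for naming clusters were settled after the clusters were seen. Hashtags 1 to 5 marked Jak2WT mice, 6, 8 and 10 dilation, and 7 and 9 aneurysm.

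Counts were summed per mouse and population (at least 10 cells) and tested over all genes passing filterByExpr with TMM scaling and the two-sided quasi-likelihood test of edgeR 4.0.16 in R 4.3.3, adjusted by Benjamini and Hochberg at 0.05. Contrasts within a mouse used the mouse as a block, since both sums come from the same animal. SE is that of the log2 fold change. DESeq2 1.42.0, other filters, other demultiplexing and clustering, thinning to 2000 UMIs and leaving out each mouse were alternatives. For some of the contrasts the tests were also run on simulated counts. There each gene had the same mean share in every sum, apart from planted changes. That setting lacks the wide differences between cell types seen here. The 37 members and the other gene lists were chosen with earlier results of these data known. Named genes are Fos, Jun, Egr1, Atf3, Dusp1, Klf2, Nr4a1, Hspa1a, Hspa8 and Dnajb1, and up to 5 members per direction with the largest called change in each contrast (3 for the other lists). Further genes named in the text were chosen after their values were seen. Mice are separate animals, but all were processed in 1 run.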

Additional observations from a re-analysis of the deposited data

Results flagged for a closer look

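In each group of 5 mice (4 for Jak2WT B cells), levels were examined for a mouse that stood apart by more than Dixon's 95% limit. The levels were those of the named members from Fos to Dnajb1 and of the immediate-early and heat-shock sums. Of 72 groups, 2 exceeded it, where chance alone gives about 1 in 20. Jun in T cells of Jak2V617F Myel mouse 6, a sum of only 12 cells, stood at 245.9 CPM, against 89.7 to 120.9 CPM in the other 4 mutant mice. Dusp1 in B cells of Jak2V617F Myel mouse 7 stood at 327.8 CPM, against 74.6 to 138.5 CPM in the others.

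For 2 members the difference between aneurysm and dilation was itself different in macrophages and T cells, by the edgeR interaction test. For Dusp5 the log2 difference in macrophages exceeded that in T cells by 3.07, and for Hspa1b it was -2.59 relative to T cells. Dusp5 kept its call in 21 of 21 alternative settings and Hspa1b in 16 of 21.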

How the results depend on the processing

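Of the called members, 42 results of single genes in a contrast (the named genes) were followed across settings, and none turned its direction. The other called members were not followed for direction. The correlation of macrophage and T cell sums, which carries no test, changed sign. The macrophage excess over T and B cells (33 members called) stayed between 31 and 34 calls, and the member share of macrophage UMIs between 5.07 and 5.39%. Without a filter on low counts, calls were 4 for genotype in resident macrophages, 5 in T cells, 3 in B cells, 3 in cDC2, 2 for the genotype interaction, 23 for aneurysm against dilation in macrophages, 2 in T cells and 5 for their difference. DESeq2 called 1 member for genotype in resident macrophages, 2 in cDC2 and 1 for the difference of the aneurysm effect. Fitting 3 groups called 2 members for genotype in macrophages. Apart from DESeq2, the shares of all genes called in these settings and those below are not given here. The counts therefore do not show whether members were called more often than other genes. The Klf4 call in B cells went to 0 without the mitochondrial limit, with cells assigned by marker scores, with the members kept in the clustering, with MULTIseqDemux, with sums of at least 1 cell and, chosen after seeing the data, with high-UMI B cells pooled in.

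Aneurysm against dilation in macrophages gave 20 calls when only the 5 mutant mice were fitted and 0 in resident macrophages, with or without the interferon-led cluster (both chosen after seeing the data), and T cells gave 2 in the 5 mutant mice. Leaving out each mouse gave 6 to 15 calls there, 0 to 2 for genotype in resident macrophages (2 without mouse 4), 0 to 1 in B cells, 1 to 2 for the difference from T cells (1 without mouse 8) and 15 to 22 for the inflammatory subset, which fell to 9 without both aneurysm mice. The cell types of a mouse are paired through the animal. Without the replicate block, calls were 33 for macrophages against lymphocytes, 0 for the interaction and 16 for the subsets. The correlation of macrophage and T cell immediate-early sums, -0.09, ranged from -0.43 to 0.25 when each mouse was left out and was -0.49 with cells assigned by marker scores. The causes were not tested. Of 960 values of single genes in alternative settings, 866 kept their side of the threshold and 94 lost it. With 2 aneurysm mice, sums of 11 to 92 T cells and few inflammatory cells outside those mice, smaller differences were not detectable at this depth.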

Other observations

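In the small populations that entered no comparison, mast cells carried early genes at levels above their range in T and B cells: Fosb ranged from 2634 to 4321 CPM and Nr4a1 from 1184 to 2954 CPM over 4 mice. T cells with Rag1, a gene of developing lymphocytes, had a median of 3409 UMIs per cell, against 7727 in the other T cells. Their C1qa reached 1190 CPM in mouse 9. Their heat-shock sum was 11488 CPM (median of 4 mice, 7834 to 14531), against 6489 CPM in the other T cells (10 mice, 5471 to 8944), with overlap. Early-gene sums were 9973 CPM in the Rag1 cells and 6394 CPM in the other T cells. Neutrophils of 3 mice had the reverse profile, with an early-gene sum of 24166 CPM and a heat-shock sum of 2076 CPM. These are values from 41 to 195 cells a population and were not tested.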
